A study of Mus musculus with 10 samples.

Results

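The 9 transcription factors that set and keep the identity of small intestinal enterocytes, Cdx1, Cdx2, Hnf4a, Hnf4g, Gata4, Gata6, Klf4, Klf5 and Elf3, were followed in RNA sequencing of isolated mouse jejunal epithelial cells. They were chosen by gene symbol from a table of 35275 genes, and 9 of the 9 were found and belonged to the 15729 genes that were tested, those averaging 0.1 FPKM or more across the 10 libraries. FPKM are the fragments on a gene scaled to its length and to the number of fragments that the library holds on genes. All 10 mice were adult C57BL/6 animals that the labels give as male, with the genotype VillinCreERT2;MYO5Bflox/flox: the villin promoter drives a tamoxifen-activated Cre recombinase in the intestinal epithelium, and both copies of Myo5b, the gene of the apical trafficking motor myosin Vb, are floxed. The 3 control mice (2, 4 and 5) received corn oil. The 4 MYO5B-knockout mice (3, 5, 6 and 7) received 2 mg of tamoxifen once and vehicle, 0.1% BSA in PBS, by intraperitoneal injection, and the 3 LPA-treated MYO5B-knockout mice (1, 4 and 5) received the same tamoxifen dose and lysophosphatidic acid (LPA) at 3 mg/kg by the same route. Cells were collected on day 4. Tamoxifen was given only to the knockout groups, so its own effect and that of Myo5b loss cannot be told apart, and 1 of the 2 description lines of LPA-treated mouse 1 calls its treatment vehicle.

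CDX1 and CDX2 are homeodomain proteins that give the gut epithelium its intestinal rather than gastric character. HNF4A and HNF4G are nuclear receptors that switch on brush border, lipid and transporter genes in villus enterocytes, and GATA4 and GATA6 are zinc finger proteins, of which GATA4 keeps the jejunum from taking on ileal expression. KLF5 is found mainly in dividing crypt cells and KLF4 in differentiated villus cells, and ELF3 is an ETS factor of the epithelium that acts in enterocyte and goblet cell maturation. These proteins bind many of the same regulatory regions, so their levels are read here beside those of their relatives, partners and target genes.

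Promoter sequence was used for 4 of the 9 genes, from RefSeq on GRCm38.p6. The stretches from 250 to 51 bases before the start are shown for the 2 starts of Hnf4a, whose transcripts are summed in a single FPKM value, and for Klf4 and Cdx2, the 2 factors whose knockout libraries all lay below every control library once the 2 libraries described next were left out. Capitals mark matches to the KLF family motif CCNCNCCC on either strand, some of which overlap each other.
Hnf4a upstream start (chr2:163506607-163506806, plus strand): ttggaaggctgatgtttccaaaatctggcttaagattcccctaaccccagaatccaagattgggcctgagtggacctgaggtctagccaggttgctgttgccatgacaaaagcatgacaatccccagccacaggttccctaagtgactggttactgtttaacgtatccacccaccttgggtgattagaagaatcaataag
Hnf4a downstream start (chr2:163546905-163547104, plus strand): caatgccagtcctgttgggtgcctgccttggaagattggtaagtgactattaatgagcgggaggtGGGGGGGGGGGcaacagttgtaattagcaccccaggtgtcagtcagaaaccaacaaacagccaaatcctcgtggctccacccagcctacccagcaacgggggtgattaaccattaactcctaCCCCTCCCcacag
Klf4 (chr4:55532526-55532725, minus strand): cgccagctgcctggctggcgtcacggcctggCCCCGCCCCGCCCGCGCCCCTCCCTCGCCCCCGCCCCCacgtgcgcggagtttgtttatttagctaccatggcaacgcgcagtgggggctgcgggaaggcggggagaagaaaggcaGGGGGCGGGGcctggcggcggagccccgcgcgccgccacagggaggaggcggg
Cdx2 (chr5:147307300-147307499, minus strand): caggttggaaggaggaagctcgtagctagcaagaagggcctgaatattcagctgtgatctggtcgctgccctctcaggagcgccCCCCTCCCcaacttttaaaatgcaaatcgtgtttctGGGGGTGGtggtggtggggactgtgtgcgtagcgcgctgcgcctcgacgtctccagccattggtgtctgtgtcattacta
The KLF motif matched 9 times in the Klf4 stretch, 5 times at the downstream Hnf4a start, 2 times at Cdx2 and once at Elf3, and not at the upstream Hnf4a start. It is also present in 36.4% of the 32851 promoter stretches of the same length. The GATA motif AGATAA, the CDX motif TTTATNG, the ETS motif GGAAGT and the HNF4 motif CAAAGTCCA, searched on both strands, had no match in these 5 stretches and are present in 8.42%, 7.65%, 14.6% and 0.295% of all stretches. By the coordinates deposited with the FPKM, the genes themselves lie apart. Elf3 is at chr1:135253575-135258568 (minus strand), Hnf4a at chr2:163506808-163572910 (plus), Hnf4g at chr3:3508030-3659775 (plus), Klf4 at chr4:55527143-55532466 (minus) and Cdx2 at chr5:147300805-147307270 (minus). Gata4 lies at chr14:63198922-63271692 (minus) and Klf5 on the same chromosome at chr14:99298691-99313405 (plus).

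The libraries held between 10949420 and 24470409 reads on genes, and the 9 factors were read deeply, with 198 to 26028 reads each per library. Control mouse 2 and MYO5B-knockout mouse 3 stood apart: 12242 and 12601 genes were detected there against 17309 to 18267 in the other 8 libraries, and their mitochondrial share of reads was 17.4% and 18%, where the others had 1.98% to 3.5%. The results for the factors are therefore also given without these 2 libraries, which leaves 2 control, 3 MYO5B-knockout and 3 LPA-treated mice, here called the other 8 libraries. Xist was present at 8.41 FPKM in knockout mouse 3 and at 15.1 FPKM in LPA-treated mouse 1, neither of which had reads on Y-linked genes, against the labelled sex. Myo5b itself lay at 16.5, 32.0 and 26.1 FPKM in control mice and between 10.5 and 13.6 FPKM in the 4 knockouts, which gave a log2 fold change of -0.96 (SE 0.28, limma's adjusted p = 0.115) that passed the test without the 2 libraries (-1.15, limma's adjusted p = 0.0185). Epithelial markers (Epcam, Krt8, Cdh1 and 4 others) summed to between 6564 and 12870 FPKM per library, whereas 7 stromal markers summed to at most 5.85 FPKM and 11 immune markers to between 5.10 and 57.8 FPKM. In such bulk RNA, fewer cells of a type and less RNA per cell cannot be told apart.

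All 9 factors were among the more abundant transcripts of the jejunal epithelium. Within single libraries, they stood between the 66.0th and the 98.1st percentile of the genes tested, with Hnf4g spanning the widest range. In control mice the order of the mean levels was Elf3 at 137 ± 41.1, Hnf4a at 125 ± 76.1 and Cdx2 at 106 ± 13.6 FPKM (SD, n = 3), then Cdx1 at 68.0 ± 18.7, Klf4 at 66.4 ± 41.7, Klf5 at 59.3 ± 50.7, Hnf4g at 43.5 ± 34.5, Gata4 at 36.3 ± 16.1 and Gata6 at 27.2 ± 13.2 FPKM. Neighbours in this order mostly did not differ beyond their spread: Cdx2 lay above Cdx1, and Gata4 above Gata6, in 3 of 3 control libraries, while the other 6 neighbouring pairs changed places between libraries. In MYO5B-knockout mice Hnf4a stood first at 179 ± 102 FPKM (SD, n = 4), followed by Elf3 at 131 ± 41.2 and Cdx2 at 86.2 ± 21.1 FPKM. Klf5 moved from the sixth place to the fourth, at 82.9 ± 33.7 FPKM, a place in control mice that rests on low-gene mouse 2, since Klf5 ranked 2 of 9 there and 8 and 9 in control mice 4 and 5. Gata6 stayed last at 27.8 ± 12.3 FPKM. In LPA-treated mice Elf3 at 147 ± 34.2 and Hnf4a at 141 ± 95.1 FPKM (SD, n = 3) came before Cdx2 at 78.8 ± 16.7, Klf5 at 77.0 ± 49.9 and Cdx1 at 75.4 ± 14.3 FPKM, and Gata4 at 39.1 ± 22.2 and Gata6 at 27.5 ± 6.56 FPKM again came last. Of neighbours, Elf3 lay above Cdx2 and Gata4 above Gata6 in 4 of 4 knockout libraries, and Cdx1 above Klf4 and Klf4 above Hnf4g in 3 of 3 LPA libraries, while the others changed places.

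**Figure D1:**
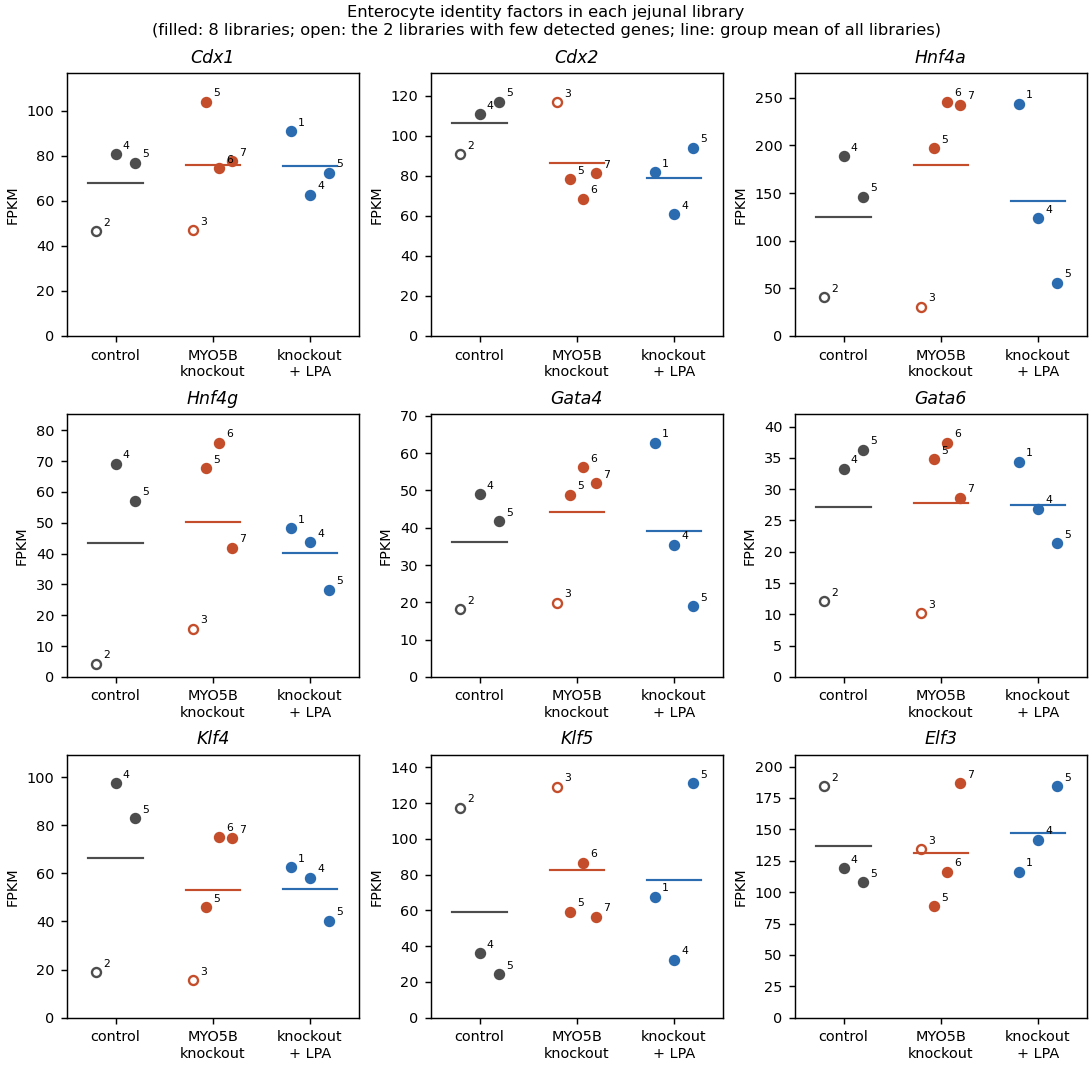
FPKM of each factor (y axis, linear, from 0) in control, MYO5B-knockout and LPA-treated MYO5B-knockout mice (x axis). Each point is the library of 1 mouse, labelled with the mouse number, lines are group means, and open points are control mouse 2 and knockout mouse 3, which lie below all other libraries for Cdx1, Hnf4a, Hnf4g, Gata6 and Klf4.

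No factor passed the test between MYO5B-knockout and control mice. The count was 0 of 9, where 2.01% of all genes tested passed an adjusted p of 0.05, and 0 of 9 had an unadjusted p under 0.05, where 17.6% of all genes did. The 2 groups overlapped for 9 of 9, where 17.2% of all genes did not overlap. The median log2 fold change of the 9 was 0.14, beside 0.29 over all genes tested. Median-ratio scaling, which divides each library by the median ratio of its genes to their mean over libraries, moved the median of all genes to 0.039 and that of the factors to -0.15. The intervals were wide for several factors and narrow for others, so the data bound the change of CDX factors and Elf3 more closely than that of HNF4 factors. An exact permutation test of single factors gave two-sided p-values from 0.171 for Cdx2 to 0.943 for Gata6, in a design of 3 against 4 mice that cannot go below 0.0571.

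Cdx2, the master regulator of intestinal identity, reached 90.8, 111 and 117 FPKM in control mice 2, 4 and 5. MYO5B-knockout mice 3, 5, 6 and 7 held 117, 78.1, 68.5 and 81.2 FPKM. Knockout mouse 3, 1 of the 2 libraries with few detected genes, was the only knockout library among the control values, and the other 3 lay below every control library. The log2 fold change was -0.32 (SE 0.27, 95% interval -0.92 to 0.28, limma's adjusted p = 0.576). Without the 2 low-gene libraries it was -0.59 (95% interval -1.08 to -0.092), with an unadjusted p of 0.0258 and limma's adjusted p = 0.139. With LPA, Cdx2 was present at 81.7, 60.8 and 93.9 FPKM in mice 1, 4 and 5, a range that overlaps both the control and the knockout values. The difference from control mice was -0.44 (95% interval -1.08 to 0.20, limma's adjusted p = 0.473).

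Cdx1, the relative of Cdx2 that is strongest in crypts, took no part in this order. It reached 46.5, 80.7 and 76.9 FPKM in control mice, and knockout mice held 46.9, 104, 74.4 and 77.6 FPKM. The lowest value of both groups came from the library with few detected genes, and the remaining values overlapped. The log2 fold change was 0.14 (SE 0.33, 95% interval -0.58 to 0.86, limma's adjusted p = 0.862), and its sign turned to -0.15 with median-ratio scaling. Without the 2 low-gene libraries it was 0.099 (limma's adjusted p = 0.814). LPA-treated mice held 90.9, 62.7 and 72.4 FPKM, inside the range of the knockout mice.

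The pair was also read as a ratio within each library, which no single scaling factor per library can change. Cdx1 per Cdx2 was 0.512, 0.729 and 0.657 in control mice, against 0.401, 1.33, 1.09 and 0.955 in knockout mice. The 3 knockout libraries other than mouse 3 thus lay above all control libraries, and mouse 3 below them. In LPA-treated mice the ratio was 1.11, 1.03 and 0.771, above every control library in 3 of 3 mice. The ratios of related factors were chosen after their values were seen and are descriptions without a test. Single genes that do not overlap were common too, at 26.9% between LPA-treated and control mice and 55.9% between knockout and control mice of the other 8 libraries.

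Hnf4a, the nuclear receptor that drives enterocyte lipid and brush border genes, reached 40.8, 189 and 146 FPKM in control mice. MYO5B-knockout mice held 30.6, 197, 246 and 243 FPKM, and LPA-treated mice 244, 124 and 56.1 FPKM. The spread within each group was larger than any difference between groups, and each group held both a low and a high library. Between knockout and control mice the log2 fold change was 0.41 (SE 0.82, 95% interval -1.41 to 2.22, limma's adjusted p = 0.837). Without the 2 libraries the 3 knockout mice lay above the 2 control mice, at 0.45 (limma's adjusted p = 0.626), an interval of -0.79 to 1.70 that holds both a fall and a rise.

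Hnf4g, its paralog, which is enriched in the intestine and largely shares its binding sites, was the most variable of the 9 factors, with a highest library 17.6 times its lowest. It reached 4.31, 69.2 and 57.1 FPKM in control mice. Knockout mice held 15.6, 67.7, 76.0 and 41.8 FPKM, and mice given LPA held 48.2, 43.7 and 28.3 FPKM. The lowest 2 values were those of control mouse 2 and knockout mouse 3. The log2 fold change between knockout and control mice was 0.73 (95% interval -1.24 to 2.69, limma's adjusted p = 0.714) and -0.068 in the other 8 libraries (95% interval -0.82 to 0.69, limma's adjusted p = 0.918), so its sign rested on these 2 libraries. Between LPA-treated and control mice of the other 8 libraries the groups did not overlap, with Hnf4g lower at -0.69 (limma's adjusted p = 0.219). Hnf4a exceeded Hnf4g in 10 of 10 libraries, by a factor of 9.46, 2.73 and 2.56 in control mice, 1.96, 2.92, 3.24 and 5.80 in knockout mice, and 5.06, 2.83 and 1.98 with LPA.

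Gata4, the factor that keeps jejunal from ileal expression, reached 18.2, 48.9 and 41.7 FPKM in control mice, and knockout mice held 19.9, 48.9, 56.3 and 51.9 FPKM. LPA-treated mice held 62.9, 35.4 and 19.0 FPKM, the highest and nearly the lowest of all libraries. The log2 fold change between knockout and control mice was 0.30 (SE 0.52, 95% interval -0.85 to 1.45, limma's adjusted p = 0.808), and 0.21 without the 2 low-gene libraries (limma's adjusted p = 0.795). Gata6, which acts in crypts as well as villi, reached 12.1, 33.3 and 36.3 FPKM in control mice, against 10.2, 34.8, 37.5 and 28.6 FPKM in knockout mice and 34.4, 26.9 and 21.3 FPKM with LPA. Its log2 fold change was 0.021 (SE 0.52, 95% interval -1.12 to 1.17, limma's adjusted p = 0.991), with -0.27 after median-ratio scaling and -0.057 without the 2 low-gene libraries (limma's adjusted p = 0.903). A noncoding gene on the opposite strand overlaps Gata6 and holds 4.94% as many reads, and whether the counting used strand is not given in the sources used here. Both GATA factors were low in control mouse 2 and knockout mouse 3 and overlapped between groups, and Gata4 per Gata6 stayed between 0.890 and 1.95 in all 10 libraries.

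Klf4, the differentiation factor of the KLF pair, reached 19.0, 97.3 and 82.9 FPKM in control mice. MYO5B-knockout mice held 15.7, 45.9, 75.2 and 74.6 FPKM. Control mice 4 and 5 lay above every knockout library, and control mouse 2 lay just above knockout mouse 3. Over all libraries the log2 fold change was -0.25 (SE 0.65, 95% interval -1.70 to 1.19, limma's adjusted p = 0.877), and in the other 8 libraries -0.50 (95% interval -1.17 to 0.17, limma's adjusted p = 0.314). LPA-treated mice held 62.5, 58.2 and 40.4 FPKM, below both control mice of the other 8 libraries in 3 of 3, at -0.77 (95% interval -1.44 to -0.096, limma's adjusted p = 0.139).

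Klf5, the crypt factor, was ordered the other way. It reached 117, 36.2 and 24.3 FPKM in control mice, and knockout mice held 129, 59.4, 86.6 and 56.4 FPKM, with its highest value in each of these groups in the library with few detected genes. The log2 fold change was 0.74 (SE 0.60, 95% interval -0.59 to 2.06, limma's adjusted p = 0.563). In the other 8 libraries the 3 knockout mice lay above the 2 control mice, at 1.16 (95% interval -0.088 to 2.40, limma's adjusted p = 0.218). LPA-treated mice spread from 32.5 to 131 FPKM, with 67.7 FPKM in mouse 1, and overlapped both groups.

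Klf4 per Klf5 within a library was 2.69 and 3.42 in control mice 4 and 5, and 0.773, 0.869 and 1.32 in knockout mice 5, 6 and 7, so Klf4 exceeded Klf5 in both of these control mice and in 1 of 3 knockout mice. In control mouse 2 and knockout mouse 3 the ratio was 0.162 and 0.122, below every other library whatever the group. With LPA it was 0.923, 1.79 and 0.308, below control mice 4 and 5 in each case.

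**Figure D2:**
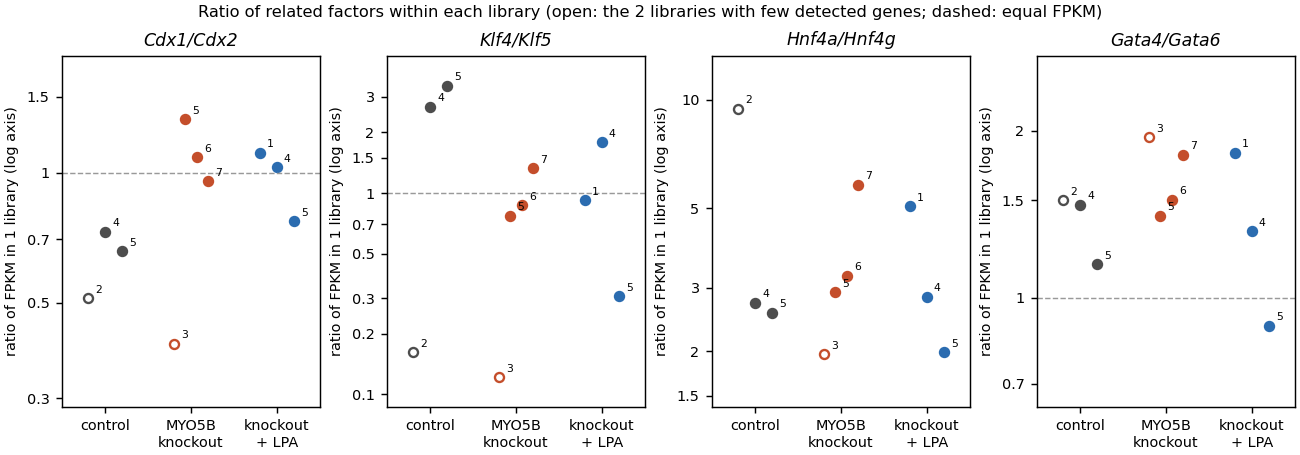
Ratio of the FPKM of 2 related factors within each library (y axis, log scale) in control, MYO5B-knockout and LPA-treated MYO5B-knockout mice (x axis), 1 point per mouse. Among filled points, knockout mice lie above control mice for Cdx1/Cdx2 and Hnf4a/Hnf4g and below them for Klf4/Klf5, while Gata4/Gata6 overlaps. With the open points of control mouse 2 and knockout mouse 3 included, the control and knockout ranges overlap in each panel.

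Elf3, the ETS factor, showed no order between groups. Control mice held 184, 119 and 108 FPKM, knockout mice 134, 88.6, 116 and 187 FPKM and mice given LPA 116, 142 and 184 FPKM, and the 3 ranges overlapped almost entirely. Between knockout and control mice the log2 fold change was -0.073 (SE 0.32, 95% interval -0.79 to 0.64, limma's adjusted p = 0.934), an interval that leaves out a change of 1 on the log2 scale in either direction. In the other 8 libraries it was 0.13 (limma's adjusted p = 0.834).

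Across the other 8 libraries, 0 of 9 factors passed the test between MYO5B-knockout and control mice, where 4.95% of all genes did, and Cdx2 alone had an unadjusted p under 0.05, as did 25.8% of all genes. The groups did not overlap for 4 of the 9, Klf5 and Hnf4a with higher and Cdx2 and Klf4 with lower knockout values. That share is no higher than the background, since 55.9% of all genes did not overlap between these 2 control and 3 knockout mice. The 2 libraries themselves lay below all other 8 for 5 factors, Cdx1, Hnf4a, Hnf4g, Gata6 and Klf4, where 34.6% of all genes did so. Hnf4g and Hnf4a were at 0.185 and 0.198 times their mean in the other libraries there, while Klf5 was at 2.00 times and Cdx2 and Elf3 at 1.2 times. The part of this library difference in the group comparison was not tested beyond leaving the libraries out and fitting them as a covariate.

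**Figure D3:**
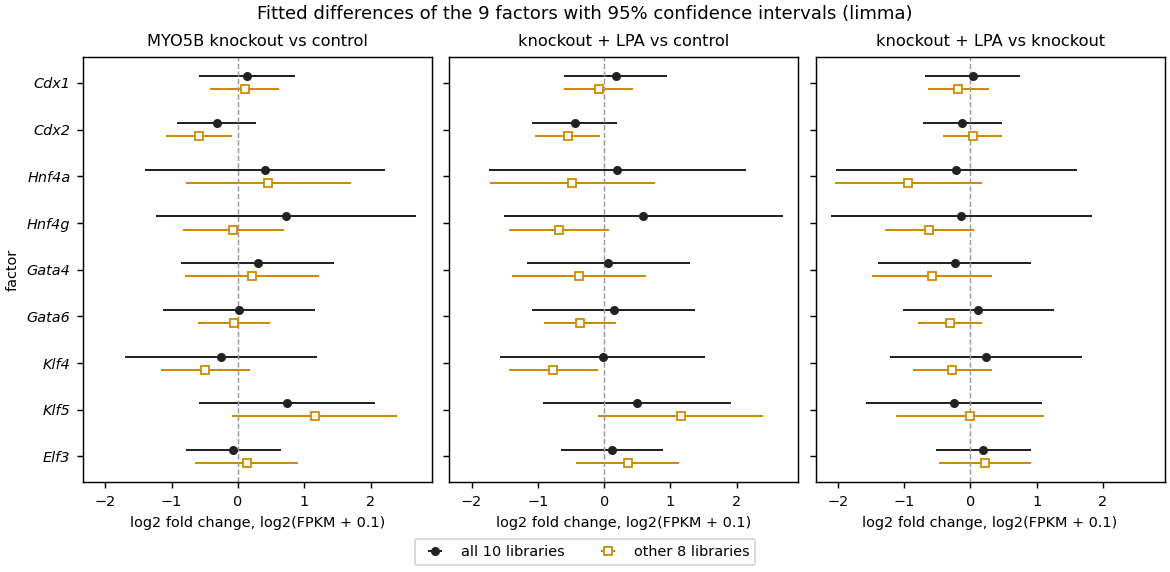
Log2 fold change of each factor (x axis, on the scale of log2(FPKM + 0.1)) with its 95% interval from limma, for 3 comparisons and with all 10 libraries (black circles) or the other 8 (open squares). Intervals cover 0 for all factors with all libraries, and without the 2 libraries those of Cdx2 lie below 0 against control mice in both knockout groups and that of Klf4 lies below 0 in LPA-treated mice.

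LPA treatment of MYO5B-knockout mice was not followed by a detectable difference in any factor. Of the 9, 0 passed between LPA-treated and vehicle-treated knockout mice, as did 0% of all genes tested. An unadjusted p under 0.05 was found for 0 factors and for 459 genes, 2.92% of those tested. On the recovered reads edgeR gave 0 genes and DESeq2 gave 7, none of them a factor. The groups overlapped for 9 of 9 factors, where 4.16% of all genes did not overlap. The log2 fold changes ran from -0.24 for Klf5 (95% interval -1.57 to 1.08) to 0.23 for Klf4 (95% interval -1.21 to 1.68), each with limma's adjusted p = 1. Without the 2 low-gene libraries Hnf4a and Hnf4g were at -0.93 and -0.62 (limma's adjusted p = 0.469 and 0.468). There 0 of 9 factors had an unadjusted p under 0.05, against 10.3% of all genes, and 0 of 9 were free of overlap, against 11.8%.

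LPA-treated and control mice also gave 0 of 9 factors past the threshold, where 2.32% of all genes passed, and 0 of 9 at an unadjusted p under 0.05, where 16.4% of all genes passed. The groups overlapped for 9 of 9 factors, where 26.9% of all genes did not overlap. This comparison shares its control libraries with the first and its LPA libraries with the second. The factor furthest from 0 in units of its error was Cdx2, given above, and for the other 8 limma's adjusted p lay between 0.735 and 0.994. Across the other 8 libraries 0 of 9 passed, where 8.56% of all genes did, and Cdx2 and Klf4 had an unadjusted p under 0.05 (0.0329 and 0.0301 from limma), as did 27.2% of all genes. Klf4, Hnf4g and Cdx2 did not overlap there, 3 of 9 factors where 45% of all genes did not overlap, and were lower with LPA, where 18.7% of all genes were lower without overlap.

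Target genes of these factors did pass the test, as read by a list of 29 enterocyte genes for digestion, transport and lipid handling. This list and those below were chosen with earlier results of these data known, so their counts are descriptions and not independent support. Between MYO5B-knockout and control mice 3 of the 29 fell and 1 rose, where 0.884% of all genes fell and 1.13% rose. A negative log2 fold change was found for 21 of the 29, with a list median of -0.79, and for 5758 of all 15729 genes. Lct, the lactase gene and a classical CDX2 and GATA4 target, fell from 114, 199.8 and 241 FPKM in control mice to 0, 0.0188, 3.57 and 1.99 FPKM in knockout mice (-8.32, SE 1.19, limma's adjusted p = 0.00935). Slc2a5, the fructose transporter GLUT5, fell from 187 ± 20.9 FPKM (SD, n = 3) to 32.3 ± 21.0 FPKM (SD, n = 4), a change of -2.79 (limma's adjusted p = 0.0218). Apoc3, the gene of an apolipoprotein and an HNF4 target, fell from 2010.5 ± 796 to 308 ± 92.1 FPKM (-2.68, limma's adjusted p = 0.0200). Cldn2, a tight junction gene bound by CDX2 that is highest in crypts, rose from 9.84 ± 2.53 to 85.9 ± 33.6 FPKM (3.05, limma's adjusted p = 0.00810). For these 4 genes the knockout and control libraries did not overlap, the 2 libraries with few detected genes included.

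The 2 most abundant targets did not pass with limma. Apoa1, another apolipoprotein gene, was at 12460 ± 1778 FPKM in control and 6054 ± 1855 FPKM in knockout mice (-1.08, limma's adjusted p = 0.243). Its groups did not overlap, where 6.2% of all genes lay lower without overlap, and it passed with DESeq2 (-1.38, DESeq2's adjusted p = 0.0233). Fabp1, the fatty acid binding protein gene, was at 9717 ± 1599 and 7399 ± 712 FPKM (-0.38, limma's adjusted p = 0.679). In LPA-treated mice 5 of the 29 targets fell against control mice, Lct, Slc2a5, Mep1a, Apoc3 and, named after its values were seen, the glucose transporter gene Slc5a1 (-1.79, limma's adjusted p = 0.0284), and 1, Cldn2, rose, where 0.776% of all genes fell and 1.54% rose. Mep1a, a brush border metalloprotease gene, was at 5.86, 28.8 and 40.6 FPKM in control mice and at 2.05, 2.53 and 1.21 FPKM with LPA (-3.29, limma's adjusted p = 0.0450), a call that was kept in 3 of the 10 fits that left out 1 mouse (adjusted p up to 0.182). Lct lay at 0.311, 0.253 and 0.0729 FPKM with LPA (-9.23, limma's adjusted p = 0.00661), Slc2a5 at 16.6 ± 3.72 FPKM (-3.50, limma's adjusted p = 0.00886) and Cldn2 at 102 ± 51.3 FPKM (3.28, limma's adjusted p = 0.00595). Apoc3 (-2.25, limma's adjusted p = 0.0434) was not called in this comparison after median-ratio scaling (limma's adjusted p = 0.0701), without the 2 low-gene libraries (0.0501) or with edgeR (0.0670). None of the 29 passed between LPA-treated and vehicle-treated knockout mice. Without the 2 low-gene libraries the counts against control mice were 7 lower and 1 higher target in vehicle-treated knockout mice, where 2.38% of all genes were lower and 2.56% higher. They were 11 lower and 2 higher in LPA-treated mice, where 4.25% were lower and 4.31% higher.

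**Figure D4:**
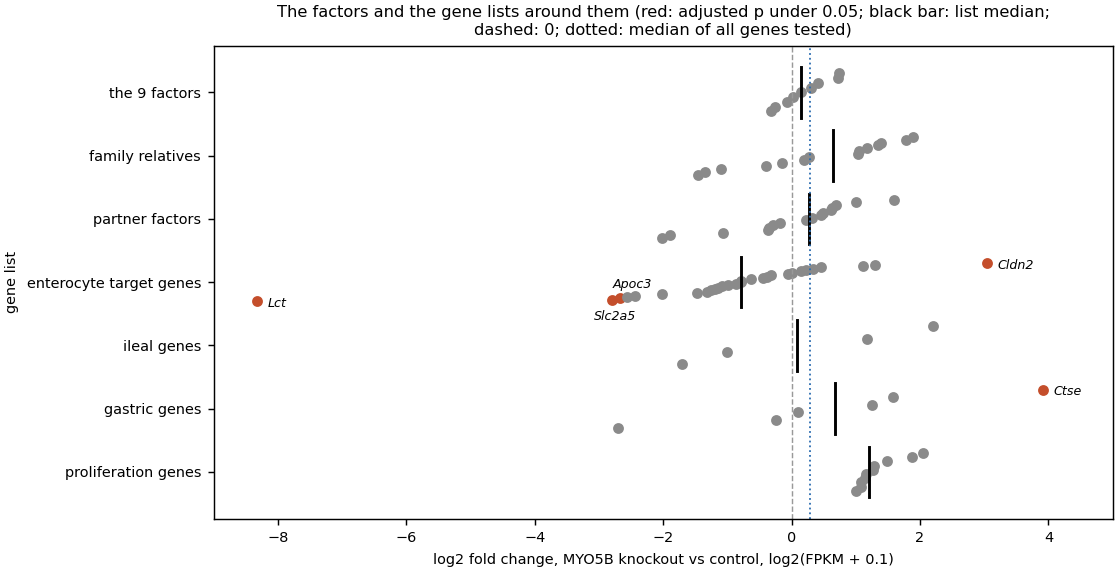
Log2 fold change between MYO5B-knockout and control mice (x axis, log2(FPKM + 0.1) scale) of the 9 factors and of 6 gene lists (y axis), 1 point per gene, with genes past an adjusted p of 0.05 in red, list medians as black bars, a dashed line at 0 and a dotted line at the median of all genes tested. The factors sit close to 0 with a median of 0.14, enterocyte target genes reach down to Lct at -8.32 with a median of -0.79, and the 10 proliferation genes lie between 1.01 and 2.04.

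Relatives of the factors gave 0 of 14 genes past the threshold in the same comparison, at a median of 0.65 on the log2 scale. Klf6, an immediate early KLF gene, was the most abundant at 29.1 ± 17.1 FPKM in control and 63.6 ± 15.2 FPKM in knockout mice (1.34, limma's adjusted p = 0.161), and Klf3, a repressor of the family, followed at 6.62 ± 4.37 and 25.5 ± 14.7 FPKM (1.89, limma's adjusted p = 0.196). Gata5, the third GATA factor of the gut epithelium, was singled out after its values were seen. Control mice held 24.0, 21.4 and 23.9 FPKM and knockout mice 4.43, 6.85, 12.1 and 13.3 FPKM. The groups thus did not overlap, where 6.2% of all genes lay lower without overlap, while Gata4 and Gata6 overlapped. The log2 fold change of Gata5, -1.45, did not pass as deposited (limma's adjusted p = 0.0861) and passed with median-ratio scaling (-1.74, limma's adjusted p = 0.0314). It also passed with quantile normalization (limma's adjusted p = 0.0256) and the covariate (limma's adjusted p = 0.0128). On the recovered reads it passed with edgeR (edgeR's adjusted p = 0.0402) and DESeq2 (DESeq2's adjusted p = 0.00037). With 1 mouse left out limma's adjusted p lay between 0.076 and 0.235. Without the 2 low-gene libraries it was at -1.13 (limma's adjusted p = 0.0865). LPA-treated mice held 9.48, 9.14 and 6.39 FPKM, below every control library, where 6.38% of all genes lay lower without overlap. Against control mice Gata5 did not pass as deposited there either. It passed with median-ratio scaling (limma's adjusted p = 0.0285), quantile normalization (0.0275), the covariate (0.0152) and without the low-gene libraries (0.0363). It passed with edgeR (edgeR's adjusted p = 0.0371) and DESeq2 (DESeq2's adjusted p = 0.000204) as well. Control mouse 2 did not stand apart for this gene, and knockout mouse 3 held its lowest value.

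Partner factors gave 0 of 16 genes past the threshold in the same comparison, with a median of 0.27. Creb3l3, a lipid regulator, was at 332 ± 96.6 FPKM in control and 291 ± 69.5 FPKM in knockout mice (-0.18, limma's adjusted p = 0.810), and Isx, a homeobox gene of vitamin A uptake that CDX2 controls, at 55.2 ± 5.49 and 92.3 ± 30.0 FPKM (0.70, limma's adjusted p = 0.234). In the other 8 libraries 1 of the 16, Foxa1, passed as higher and 2, Maf and Ppargc1a, as lower, where 2.56% of all genes were higher and 2.38% lower. These 3 were named after their values were seen. With all libraries Ppargc1a also passed as lower with median-ratio scaling, quantile normalization and edgeR (edgeR's adjusted p = 0.0171). Ileal genes, the readout of lost GATA4 activity in the jejunum, gave 0 of 4 tested. Slc51a and Slc51b, the subunits of the basolateral bile acid exporter, were at 221 ± 7.01 and 96.9 ± 17.6 FPKM in control mice and at 112 ± 24.7 and 35.8 ± 24.3 FPKM in knockout mice (-1.01 and -1.71, limma's adjusted p = 0.0714 and 0.117). Slc51a passed as lower, and Slc10a2, the apical bile acid transporter, as higher in the other 8 libraries, so the 2 genes of this list that passed there moved in opposite directions. They differ in level: the list summed to between 304.5 and 343.9 FPKM in control mice, nearly all of it Slc51a and Slc51b. Slc10a2 was thus a low gene beside them. With all libraries Slc51b passed as lower with median-ratio scaling (limma's adjusted p = 0.0449), the covariate (limma's adjusted p = 0.016) and DESeq2 (DESeq2's adjusted p = 0.00749). Slc51a did so with the covariate (limma's adjusted p = 0.0129) and DESeq2 (DESeq2's adjusted p = 0.0432).

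Gastric genes, the readout of lost CDX2 activity, gave 1 of 6 tested that rose and 0 that fell, where 1.13% of all genes rose and 0.884% fell. Ctse, the gene of cathepsin E, rose from 0, 0.336 and 0.242 FPKM in control mice to 2.23, 6.19, 3.43 and 3.59 FPKM in knockout mice (3.92, limma's adjusted p = 0.0166) and lay at 14.4, 8.56 and 4.24 FPKM with LPA (5.05, limma's adjusted p = 0.00549). Gkn3, a gastrokine gene, was at 1.16 ± 0.463 FPKM in control and 0.101 ± 0.0918 FPKM in knockout mice (-2.71, limma's adjusted p = 0.0810), and passed as lower with median-ratio scaling (limma's adjusted p = 0.0393), the opposite direction to Ctse. Of the 6 tested genes 4 had a positive and 2 a negative log2 fold change. Between knockout and control mice 2 lay higher without overlap, Ctse and Cldn18, and 1 lower, Gkn3, where 11% of all genes lay higher and 6.2% lower. Cldn18, named after its values were seen, did not pass with edgeR (6.36, edgeR's adjusted p = 0.147). The stomach mucin gene Muc5ac and the trefoil gene Tff1 had no reads in any library, and the whole list of 13 genes summed to at most 16.3 FPKM.

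Proliferation genes lay higher in knockout mice than in control mice in 10 of 10, where 9971 of all 15729 genes had a positive log2 fold change. Their median was 1.21, and 0 of the 10 passed the test. For 8 of the 10 the groups did not overlap, where 11% of all genes lay higher without overlap, and 1 passed with median-ratio scaling. Pcna was at 45.3 ± 24.6 and 97.8 ± 29.3 FPKM (1.27, limma's adjusted p = 0.159) and Birc5 at 17.0 ± 11.2 and 34.2 ± 22.8 FPKM (1.01, limma's adjusted p = 0.381). The list summed to between 95.7 and 132 FPKM in control mice and to between 221.5 and 362 FPKM in knockout mice, where Klf5, the crypt member of the KLF pair, had the larger mean as well. How far the share of crypt cells in each library moved the KLF and CDX ratios was not tested. Immune markers ran the other way, from 26.6 to 57.8 FPKM in control mice and from 5.10 to 21.9 FPKM in knockout mice.

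By the root mean square difference of gene-centred log2 values over the 10 libraries, among 10575 genes averaging 1 FPKM or more, the pattern most like each factor was that of a gene outside the 9. With so few factors among so many genes, such an outcome was likely in advance and says little about the factors. The nearest gene was Atg7 for Cdx1 at a difference of 0.0749, Pcnxl3 for Gata6 at 0.0895, Sipa1l3 for Gata4 at 0.103, Tmem260 for Klf4 at 0.135 and Rbck1 for Cdx2 at 0.168. For Hnf4a it was Ankrd13c at 0.184, for Elf3 Dad1 at 0.188, for Hnf4g Mknk1 at 0.201 and for Klf5 Heatr3 at 0.278. Among the factors themselves Gata4 and Gata6 were nearest to each other at 0.320, less than the root mean square spread of each around its own mean (0.656 and 0.638), with 341 genes closer to Gata4 and 758 closer to Gata6. The factor nearest to Klf4 was Gata6 at 0.337, against a Klf4 spread of 0.843, with 155 genes closer to Klf4. Cdx2 and Elf3, at 0.467, were further from each other than their own spreads of 0.304 and 0.349, so they were not alike by this measure. These likenesses are descriptions over 10 libraries that share the split in detected genes.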

How the data were processed

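Poly(A) RNA of jejunal epithelial cells from 10 mice was sequenced. Per the labels, the submitters' processing notes name STAR 2.5, TopHat, HTSeq 0.6.1, DESeq2 and the GRCm38/mm10 build, without saying what each was used for. The authors deposited FPKM per gene for each library, without stated scaling between libraries, and a second file repeats the FPKM and gives read counts for 63 values. Reads were recovered as FPKM times gene length, divided by 1 step estimated for each library, and were whole in 100% of values (tolerance 0.01 reads). All 63 deposited counts equal the recovered reads. These counts come from the knockout and LPA-treated libraries, so the control libraries could not be checked in this way. Fold changes and p-values of the authors' own LPA comparison and their pathway enrichments of called genes were not used.

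Samples were grouped by title. The 15729 genes averaging 0.1 FPKM or more were compared as log2(FPKM + 0.1), which understates changes of low genes, in 1 limma 3.58.1 model of 3 groups with a trended variance (R 4.3.3), two-sided, with Benjamini-Hochberg adjustment. Because the files hold FPKM, edgeR 4.0.16 and DESeq2 1.42.0 on the recovered reads are alternatives, edgeR calling 443 genes and DESeq2 1830 between MYO5B-knockout and control mice. The scripts were tested on simulated data. Each mouse is 1 library, and depth ranged from 10949420 to 24470409 reads on genes. No member shares a 50-base stretch with another.

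The factors, gene lists and left-out libraries were chosen with earlier results of these data known. Besides the 9 factors and Myo5b, genes were named by rule: from each list up to 4 genes past the threshold by fold change and the 2 of highest mean, and the nearest pattern of each factor. Promoters came from RefSeq on GRCm38.p6, and overlapping genes were found by the coordinates deposited with the FPKM. Transcript sequences, compared for shared stretches, came from GENCODE M21. Cdx1, Gata4, Gata6, Hnf4g and Klf5 promoters were not used here.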

Additional observations from a re-analysis of the deposited data

How the results depend on the processing

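In no fit did a factor pass an adjusted p of 0.05: 0 of 216 fits in 24 settings of MYO5B-knockout against control mice (smallest 0.0761, Cdx2 at -0.82), 0 of 216 of LPA-treated against vehicle-treated knockout mice (0.436, Hnf4g at -0.51) and 0 of 225 in 25 settings of LPA-treated against control mice (0.0972, Hnf4g at -0.82), each from limma with median-ratio scaling and the 2 low-gene libraries left out, a setting chosen after seeing the data. Signs were less stable: of these fits 32, 37 and 58 had the opposite sign to the value in the report. The cause of the changes was not tested. Each factor had at least 198 reads in every library.

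Of the genes tested between knockout and control mice 316 passed, of which 5 in the 6 gene lists. The counts were 188 over all genes without a filter, 598 and 14 with median-ratio scaling, 804 and 12 with quantile normalization, 50 and 1 with only these groups in the fit, 778 and 15 without the 2 low-gene libraries, 2449 and 33 with these as a covariate, 975 and 18 without them after median-ratio scaling, 10 in the lists with edgeR, 1830 and 22 with DESeq2, and 8 in the lists without the 2 libraries against the labelled sex. Leaving out 1 mouse each gave 44 (without control mouse 5) to 403 genes (without knockout mouse 3) and 0 to 8 in the lists. With only these groups in the fit Lct (0.0561), Slc2a5 (0.0872), Apoc3 (0.0503) and Ctse (0.0706) lost their call, as did Slc2a5 (0.0589) without the libraries against the labelled sex, all limma's adjusted p. With 1 mouse left out Lct, Slc2a5, Apoc3, Ctse and Cldn2 reached adjusted p-values of 0.0669, 0.107, 0.0997, 0.0669 and 0.0506 in the weakest of these fits. Gkn3 passed as lower with a pseudocount of 1 (0.0325), median-ratio scaling (0.0393), quantile normalization (0.0276), the covariate (0.0195), DESeq2 (0.0339) and without the libraries against the labelled sex (0.0449). Proliferation genes passed as higher with median-ratio scaling (Ccnb1), quantile normalization (Ccna2 and Ccnb1) and DESeq2 (Ccna2, Ccnb1 and Mcm5), and with the covariate for 7 of the 10, Pcna (0.0222) and Birc5 (0.0382) among them. Myo5b passed at -1.25 with median-ratio scaling, -1.17 with quantile normalization, -1.15 without the low-gene libraries, -1.002 with the covariate, -1.39 without them after scaling, -1.22 with edgeR and -1.24 with DESeq2, and lay between -1.23 and -0.75 with 1 mouse left out. Factors whose groups did not overlap numbered 4 without the low-gene libraries, where 55.9% of all genes did not overlap. They numbered 0 to 2 with 1 mouse left out, where the share of all genes was not computed. Signs turned with median-ratio scaling for Cdx1 (-0.15) and Gata6 (-0.27), with quantile normalization for Gata6 (-0.11) and Elf3 (0.017), without the low-gene libraries for Hnf4g (-0.068), Gata6 (-0.057) and Elf3 (0.13), and without the libraries against the labelled sex for Klf4 (0.25) and Creb3l3 (0.012). They turned with the covariate for Gata6 (-0.11), without the low-gene libraries after scaling for Cdx1 (-0.14), Hnf4g (-0.31), Gata4 (-0.029) and Gata6 (-0.30), with edgeR for Cdx1 (-0.11) and Gata6 (-0.23), and with DESeq2 for Cdx1 (-0.14), Hnf4g (-0.0012) and Gata6 (-0.26). With 1 mouse left out Cdx1 ranged from -0.11 to 0.35, Hnf4a from -0.27 to 1.13, Hnf4g from -0.55 to 1.43, Gata4 from -0.14 to 0.65, Gata6 from -0.48 to 0.45, Klf4 from -0.999 to 0.25, Elf3 from -0.26 to 0.16 and Creb3l3 from -0.44 to 0.012.

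Between LPA-treated and vehicle-treated knockout mice 7 genes passed with DESeq2 and 0 in the other settings. Signs turned with median-ratio scaling for Cdx1 (-0.050), with quantile normalization for Cdx1 (-0.085), without the low-gene libraries for Cdx1 (-0.18), Cdx2 (0.034), Gata6 (-0.30) and Klf4 (-0.27), and without the libraries against the labelled sex for Cdx1 (-0.32), Gata6 (-0.48) and Klf4 (-0.39). They turned with the covariate for Cdx1 (-0.17), Gata6 (-0.28), Klf4 (-0.30) and Klf5 (0.12), without the low-gene libraries after scaling for Cdx1 (-0.077), Cdx2 (0.14), Gata6 (-0.20), Klf4 (-0.17) and Klf5 (0.099), with edgeR for Cdx1 (-0.042) and Gata6 (-0.0089), and with DESeq2 for Cdx1 (-0.053) and Gata6 (-0.0068). With 1 mouse left out Cdx1 ranged from -0.18 to 0.20, Cdx2 from -0.26 to 0.054, Hnf4a from -0.93 to 0.33, Hnf4g from -0.62 to 0.14, Gata4 from -0.66 to 0.20, Gata6 from -0.30 to 0.32, Klf4 from -0.27 to 0.48 and Klf5 from -0.74 to 0.27.

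Between LPA-treated and control mice 365 genes passed, of which 7 in the lists. The counts were 11 in the lists with median-ratio scaling, 626 and 13 with quantile normalization, 190 and 4 with only these groups, 1346 and 24 without the low-gene libraries, 1800 and 30 with the covariate, 1505 and 25 without them after scaling and 1489 and 23 with DESeq2, and 73 to 702 and 3 to 14 with 1 mouse left out. Mep1a lost its call with a pseudocount of 0.01 (limma's adjusted p = 0.0514), without a filter (0.0627), with only these groups (0.118) and without the libraries against the labelled sex (0.092). Factors whose groups did not overlap numbered 3 without the low-gene libraries, where 45% of all genes did not overlap. They numbered 2 with median-ratio scaling and 0 to 3 with 1 mouse left out, settings for which the share of all genes was not computed. Signs turned with median-ratio scaling for Cdx1 (-0.20), Hnf4a (-0.18), Gata4 (-0.31), Gata6 (-0.23) and Elf3 (-0.25), with quantile normalization for Gata4 (-0.11) and Gata6 (-0.10), without the low-gene libraries for Cdx1 (-0.080), Hnf4a (-0.48), Hnf4g (-0.69), Gata4 (-0.37) and Gata6 (-0.36), and without the libraries against the labelled sex for Hnf4a (-0.32), Gata4 (-0.36) and Gata6 (-0.031). They turned with the covariate for Cdx1 (-0.096), Hnf4a (-0.63), Hnf4g (-0.35), Gata4 (-0.39) and Gata6 (-0.40), and without the low-gene libraries after scaling for Cdx1 (-0.22), Hnf4a (-0.61), Hnf4g (-0.82), Gata4 (-0.51) and Gata6 (-0.50). With edgeR they turned for Cdx1 (-0.16), Hnf4a (-0.075), Hnf4g (-0.28), Gata4 (-0.18), Gata6 (-0.24), Klf5 (-0.18) and Elf3 (-0.32), and with DESeq2 for Cdx1 (-0.20), Hnf4a (-0.11), Hnf4g (-0.30), Gata4 (-0.22), Gata6 (-0.27), Klf5 (-0.25) and Elf3 (-0.37). With 1 mouse left out Cdx1 ranged from -0.080 to 0.32, Hnf4a from -0.48 to 0.74, Hnf4g from -0.69 to 1.3, Gata4 from -0.37 to 0.50, Gata6 from -0.36 to 0.43, Klf4 from -0.77 to 0.41, Klf5 from -0.00078 to 1.15 and Elf3 from -0.054 to 0.35.

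Mice of different groups share only a number: deviations from the group means correlated at 0.104 between control and LPA-treated mouse 4, -0.36 between those numbered 5, 0.300 between control and knockout mouse 5 and -0.21 between knockout and LPA-treated mouse 5. With a block for the mouse number in a fit of all LPA-treated and control libraries, 0 genes passed between these groups, 0 of them in the lists. Only mice 4 and 5 occur in both groups and inform that difference, too few pairs to read the 0 calls as an absence of change. Cdx1 (-0.22), Hnf4a (-0.99), Hnf4g (-0.84), Gata4 (-0.80) and Gata6 (-0.54) had the opposite sign. For the other 2 comparisons no paired analysis was possible because their groups share only number 5.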
